A study of Mus musculus with 8 samples.

Results

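Among cells sorted as endothelial from mesentery and epididymal adipose tissue of chow-fed and high-fat-fed mice, 582 of 23996 barcodes were macrophages by their transcripts. A barcode, the tag shared by all RNA captured in 1 droplet, was used if it held at least 500 unique molecular identifiers (UMIs, each standing for 1 captured transcript), at least 300 genes and at most 10% mitochondrial UMIs. It was counted as a macrophage if at least 4 of the 7 genes Lyz2, C1qa, C1qb, C1qc, Csf1r, Mpeg1 and Ms4a7 had a UMI, Csf1r or Mpeg1 among them, while the endothelial genes Cdh5 and Cldn5 both had none. The cells were thus selected on the UMIs of these 9 genes, whose levels are given only as a description.

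All mice were male ROSA26-eYFP+/+ Cdh5-CreERT2+ animals, in which tamoxifen activates a Cre recombinase driven by the Cdh5 promoter and so switches on yellow fluorescent protein (YFP) in endothelial cells. Tamoxifen diet was given from 6 weeks of age for 2 weeks, followed from 8 weeks of age by chow with 5.8% fat or by a diet with 60% fat for 12 to 13 weeks. Each of the 8 libraries pooled tissue of 6 mice, and the labels mention 2 repeats of the experiment. The letters A and B in the sample titles were taken as these repeats and are called runs A and B here, so each of the 4 combinations of tissue and diet had 1 library per run; the labels do not spell this out. Tissue was digested with Liberase TM in the presence of actinomycin D, red cells were lysed, dead cells were marked with Sytox blue, and about 5000 cells per library were targeted with the Chromium 3′ v3.1 chemistry. Lung of a Cre-positive mouse and mesentery of a Cre-negative mouse served as sorting controls. The gate is not stated in the labels, and neither feature list holds the reporter, so whether the macrophages carried YFP was not analysed here.

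Macrophages are phagocytes that depend on signalling through the receptor encoded by Csf1r and engulf dying cells, lipoproteins and iron-laden debris. Resident macrophages that line blood vessels in adipose tissue typically carry the hyaluronan receptor LYVE1, the mannose receptor MRC1 and the haemoglobin scavenger receptor CD163. In obese adipose tissue, macrophages gather around dying adipocytes and take up their lipid, and such lipid-associated macrophages are known for the lipid-sensing receptor TREM2, the glycoprotein GPNMB, the tetraspanin CD9 and lipid-handling enzymes.

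Promoter windows, the 250 bases before a gene's start, were read for 9 of the genes on which the diet comparison turns. Shown are 4 that hold a match to the motifs below, 3 of genes with higher levels on high-fat diet (Trem2, Mmp12 and Spp1) and 1 of a gene with a lower level (Retnla). The bases come from RefSeq's annotation of GRCm38.p6, the assembly that the submitters' processing notes name as mm10. Capitals mark matches to 4 short motifs on either strand: the core GAGGAA of sites of PU.1, the factor that sets macrophage identity; TGANTCA of AP-1; the E-box CACGTG; and the Maf half-site TGCTGAC. Trem2 (ENSMUSG00000023992) starts at base 48346401 of chromosome 17, Mmp12 (ENSMUSG00000049723) at base 7344397 of chromosome 9, Spp1 (ENSMUSG00000029304) at base 104435111 of chromosome 5 and Retnla (ENSMUSG00000061100) at base 48842609 of chromosome 16, all on the forward strand.
Trem2, chr17:48346151-48346400: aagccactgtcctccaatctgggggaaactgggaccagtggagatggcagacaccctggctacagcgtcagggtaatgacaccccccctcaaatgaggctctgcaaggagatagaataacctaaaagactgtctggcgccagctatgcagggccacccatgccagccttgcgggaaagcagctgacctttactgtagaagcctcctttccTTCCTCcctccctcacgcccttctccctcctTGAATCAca
Mmp12, chr9:7344147-7344396: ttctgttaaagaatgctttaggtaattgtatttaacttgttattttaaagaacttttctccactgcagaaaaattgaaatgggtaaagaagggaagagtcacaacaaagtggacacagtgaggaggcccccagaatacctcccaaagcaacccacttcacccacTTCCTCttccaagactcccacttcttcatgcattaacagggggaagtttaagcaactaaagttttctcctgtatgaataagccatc
Spp1, chr5:104434861-104435110: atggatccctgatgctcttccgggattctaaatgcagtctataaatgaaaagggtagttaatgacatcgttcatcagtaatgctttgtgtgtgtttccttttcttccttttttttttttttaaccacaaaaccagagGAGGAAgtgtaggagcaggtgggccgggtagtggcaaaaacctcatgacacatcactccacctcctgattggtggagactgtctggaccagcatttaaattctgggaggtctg
Retnla, chr16:48842359-48842608: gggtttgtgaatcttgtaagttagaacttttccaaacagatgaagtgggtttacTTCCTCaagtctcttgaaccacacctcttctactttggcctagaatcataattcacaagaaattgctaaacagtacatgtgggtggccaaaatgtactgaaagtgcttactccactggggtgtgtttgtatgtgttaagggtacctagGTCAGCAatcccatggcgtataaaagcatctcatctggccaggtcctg
Each of the 4 windows held 1 PU.1 core. The Trem2 window also held TGAATCA, a match to the AP-1 string TGANTCA, where N stands for any base. The Retnla window held 1 Maf half-site. Of the 5 windows not shown, that of F13a1 held 1 PU.1 core, and those of Gpnmb, Cd9, Lgals3 and Cd163 held no match to any of the 4 motifs. The PU.1 core was present in 23.1% of 27025 windows of the same length, AP-1 in 6.87%, the E-box in 6.05% and the Maf half-site in 3.72%. Of the list of lipid-associated genes used below, 12 of 18 had an entry, and 5 of these 12 windows (41.7%) held the PU.1 core and 2 held AP-1. Of the perivascular list, 16 of 18 had an entry, with the PU.1 core in 8 windows (50.0%) and AP-1 in 3. A match describes letters in a window and does not show binding.

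The deposited labels call these cells endothelial, and the macrophages went against that label. Summed over 11 endothelial markers, a list without Cdh5 and Cldn5, they held between 21.4 and 93.3 CPM (UMIs of a gene scaled to a common total per library) in the libraries of run B. The 14086 barcodes that had UMIs of both Cdh5 and Cldn5 and at most 2 of the 7 macrophage markers held 8526 CPM of the same 11 genes. Both sets were chosen by Cdh5 and Cldn5, so this is a description. Pecam1, an endothelial adhesion molecule outside the rule, held 0, 1, 4 and 40 UMIs in the macrophages of chow mesentery, chow adipose, high-fat mesentery and high-fat adipose tissue. Myeloid genes that the rule did not use were present throughout: a list of 18, among them Cd68, Tyrobp and Fcer1g, summed to 11600.2 CPM in chow mesentery, 12358 in chow adipose, 13442 in high-fat mesentery and 14292 in high-fat adipose tissue, against 208 CPM in the endothelial barcodes. Markers of adipocytes, fibroblasts and mural cells were low. In the same order, 8 adipocyte markers summed to 117, 46.9, 17.3 and 7.84 CPM, 8 fibroblast markers to 7.77, 28.2, 7.60 and 9.17 CPM, and 7 mural cell markers to 7.77, 18.8, 6.22 and 9.47 CPM. Higher sums were found for 6 B cell markers (350, 375, 178 and 163 CPM) and 8 dendritic cell markers (295, 197, 117 and 65.1 CPM). The 4 haemoglobin genes summed to 0, 0, 1.38 and 421 CPM. T cell, neutrophil, mesothelial, and mast and NK cell markers reached at most 38.9 CPM. Gata6, which marks large peritoneal macrophages, had 0 UMIs in 3 libraries of run B and 0.444 CPM in high-fat adipose tissue.

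Barcodes near the limits of the rule resembled the macrophages in myeloid genes and differed in depth. The 23 macrophages with exactly 4 markers had a median of 6481 UMIs and 10997 CPM of the 18 myeloid genes; the 52 barcodes with only 3 markers had 5147.5 UMIs and 11939 CPM. A further 35 barcodes had at least 4 markers but neither Csf1r nor Mpeg1, with a median of 1241 UMIs. Cdh5 or Cldn5 excluded 201 barcodes that met every other condition. The 65 of these with a single such UMI held 147 CPM of the endothelial list, here with Cdh5 and Cldn5 in it, and the 136 with more held 3881 CPM together with 9872 CPM of the myeloid genes. Doublets were not removed from the main set: 8 of the 582 macrophages had a high Scrublet doublet score. No barcode was a macrophage in more than 1 library, although pairs of libraries shared between 0 and 9 barcodes and 9 macrophages had a barcode that was also used in another library.

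Macrophages were rare in run A and on chow, and common in the high-fat libraries of run B. Run A held 1 among 1567 barcodes of chow mesentery, 4 among 1919 of chow adipose, 1 among 992 of high-fat mesentery and 3 among 1324 of high-fat adipose tissue, or 0.0638%, 0.208%, 0.101% and 0.227%. Run B held 24 among 5134, 15 among 5659, 90 among 2992 and 444 among 4409 barcodes in the same order. These shares were 0.467% (exact 95% binomial interval 0.300 to 0.695%), 0.265% (0.148 to 0.437%), 3.01% (2.43 to 3.68%) and 10.1% (9.20 to 11%). Both high-fat libraries of run B lay above all other libraries, whereas the run A libraries did not separate by diet.

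**Figure D1:**
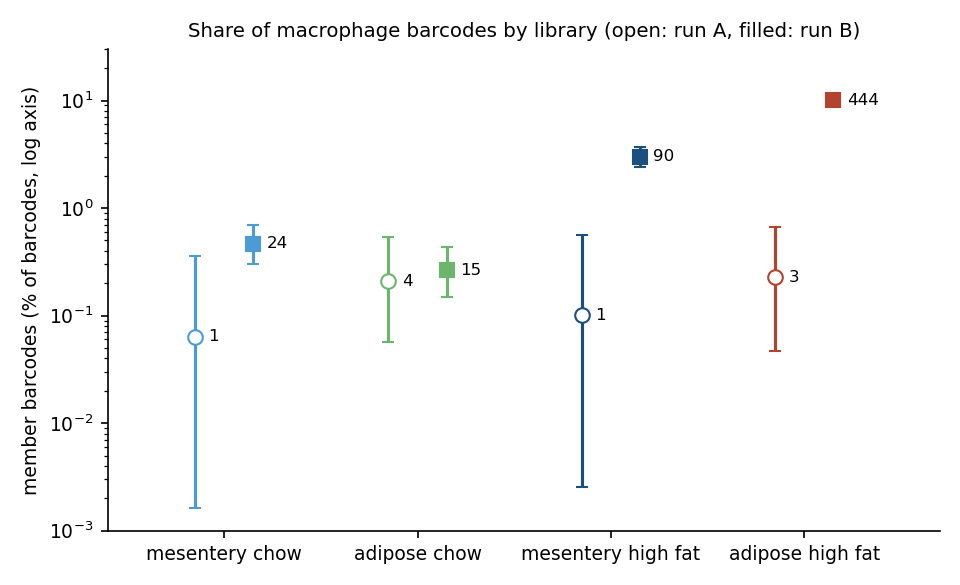
Macrophages as a percent of the barcodes used, on a log axis, for each tissue and diet; open points are run A, filled points run B, bars are exact 95% binomial intervals and labels give the number of macrophages. The filled high-fat points stand at 3.01% and 10.1%, above every other point, while the open points of both diets lie between 0.0638% and 0.227%.

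In run B the share was 6.43 times as large on high-fat diet in mesentery (95% interval 4.06 to 10.6, counting error only) and 38.0 times as large in adipose tissue (22.8 to 68.5). In run A the ratios were 1.58 (0.0201 to 124) and 1.09 (0.159 to 6.43). Over the 8 libraries the mean share was 3.35% for high-fat diet against 0.251% for chow, a difference of 1.54 in mean logit share, with a two-sided exact permutation p of 0.286 for 4 against 4 libraries (0.543 after Benjamini-Hochberg adjustment over the diet and tissue tests; smallest possible p 0.0286). Permuting within runs gave an exact p of 0.111, where 0.0556 is the smallest possible. The difference between diets did not pass this test against the spread between libraries. Adipose and mesentery differed by 0.68 (mean shares 2.69% and 0.910%; exact permutation p 0.543). A fixed depth left the order as it was: with every barcode thinned to 1000 UMIs before the rule was applied, the run B shares were 0.284%, 0.211%, 2.41% and 8.33%.

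Depth differed between runs and diets. Libraries of run A held 3461360 to 6714473 UMIs and those of run B 18829960 to 36779289. Median UMIs per macrophage in run B were 3035 in chow mesentery, 7082 in chow adipose, 14621 in high-fat mesentery and 12718.5 in high-fat adipose tissue, while the other barcodes of these libraries stayed between 3429 and 4699.5. Macrophages thus had more UMIs than the cells around them in 3 of the 4 libraries, chow mesentery being the exception. The summed macrophage counts were 128618, 106567, 1446923 and 6760063 UMIs in run B and 20818 in all of run A. A level near 1 UMI is thus 7.77 CPM in chow mesentery and a fraction of 1 CPM on high-fat diet. Levels below are in CPM, the UMIs of a gene over 1000000 UMIs summed over the macrophages of a library, in the order chow mesentery, chow adipose, high-fat mesentery and high-fat adipose tissue of run B unless another is given. With summed counts, fewer cells of a type and less RNA per cell cannot be told apart.

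Lyz2, the lysozyme of myeloid cells, also had UMIs in endothelial barcodes. Among all barcodes with UMIs of both Cdh5 and Cldn5, whatever their macrophage markers (2872, 4301, 2215 and 2707), it had a UMI in 3.41%, 2.88%, 8.71% and 21.8%, at median depths of 4386.5, 5609, 4939 and 4474 UMIs. These sets include 7, 20, 27 and 164 barcodes with 3 or more of the 7 macrophage markers. Among those with none of the other 6 markers the shares were 2.82%, 2.17%, 6.88% and 14.4%. In the macrophages Lyz2 was found in 95.8%, 100%, 98.9% and 100%. Doublets and free RNA were not told apart in the endothelial shares.

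The 7 genes of the rule were not at one level. Lyz2 stood at 7339.6, 7723, 12067 and 13795 CPM, and Ms4a7, a tetraspan protein of macrophages, at 233, 450.4, 693 and 920.0 CPM. The complement genes C1qa, C1qb and C1qc, whose products form the first component of the classical pathway, lay between 2488 and 4795 CPM in all 4 libraries. Csf1r stood at 1127, 1342, 717 and 634 CPM, the one gene of the 7 that was lower in both high-fat libraries. Since these genes chose the cells, nothing is read from these levels.

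The diet comparison, the main question of the study's design, gave 2 sets of genes with opposite differences in both tissues. Genes of lipid-associated macrophages were several-fold higher on high-fat diet, and genes of perivascular resident macrophages, together with Retnla, were several-fold lower. With 1 library per group in run B there is no test within that run. A gene was compared there if it reached 200 CPM in at least 1 of the 2 libraries, and was counted if it differed at least 2-fold, a library with fewer than 3 UMIs being set to 3. In mesentery 231 of 911 genes passed this size (25.4%), 94 higher on high-fat diet (10.3%) and 137 lower (15%). In adipose tissue 197 of 862 genes passed (22.9%), 97 higher (11.3%) and 100 lower (11.6%). These splits depend on the scaling. With trimmed-mean (TMM) factors, which add 0.32 to the log2 difference of every gene in mesentery and 0.29 in adipose tissue, 203 genes were higher and 62 lower in mesentery, and 178 higher and 60 lower in adipose tissue. Median log2 differences over all genes compared were 0.09 and 0.13 before this shift, and differences below are on the unshifted scale.

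Many of the genes were shared between the tissues. Of 779 genes compared in both, 169 differed 2-fold in mesentery and 166 in adipose tissue; 110 did so in both, 65.1% of the first set and 66.3% of the second. All 110 had the same direction, 53 higher and 57 lower on high-fat diet. Across the 779 genes, which are not independent replicates, Pearson's r between the log2 differences was 0.859. The 2 comparisons share no library. Averaged over the tissues, 196 of 994 genes differed 2-fold by diet (19.7%), 85 higher (8.55%) and 111 lower (11.2%). The diet difference itself differed 2-fold between the tissues for 77 genes (7.75%), 37 with the larger value in adipose tissue (3.72%) and 40 with the smaller (4.02%).

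**Figure D2:**
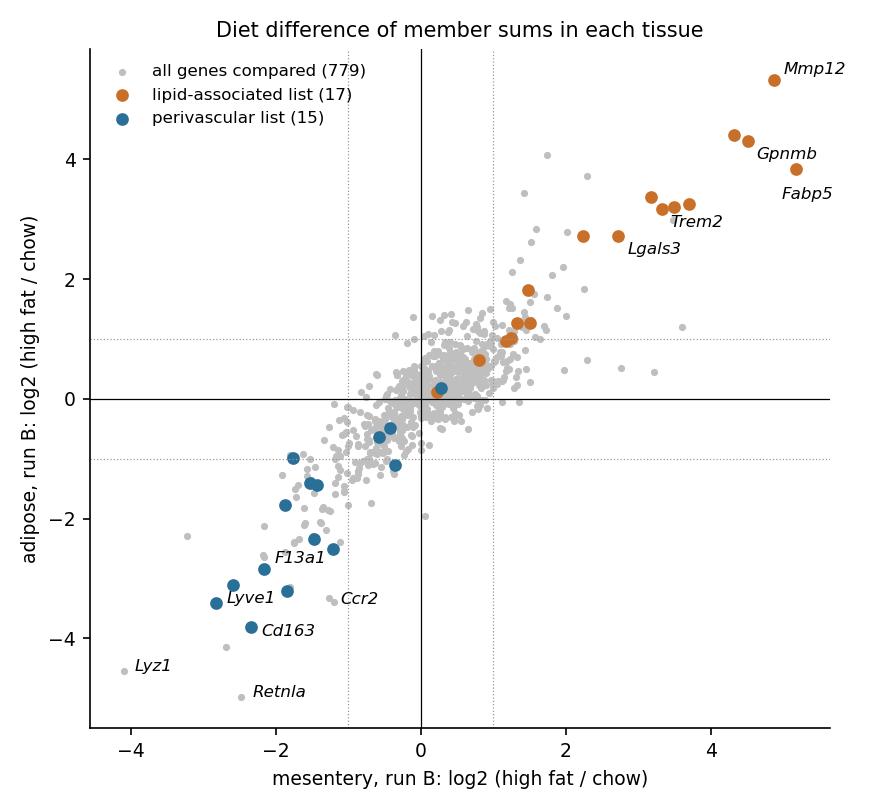
Log2 difference between high-fat diet and chow in macrophages of run B for 779 genes, mesentery on the horizontal and adipose tissue on the vertical axis; orange points are lipid-associated genes, blue points perivascular genes, and dotted lines mark 2-fold. Most orange points lie in the upper right and most blue points in the lower left.

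A test over replicates was possible only with all 8 libraries, where run A contributes 9 macrophages. edgeR's quasi-likelihood test on 1324 genes, with diet averaged over the tissues, called 18 genes at an adjusted p under 0.05 (1.36%), 9 of them higher and 9 lower. With run as a block it called 47 (3.55%), 18 higher (1.36%) and 29 lower (2.19%). DESeq2 called 2 without and 16 with the block. The number of calls depended on each single library of run B. With the block, 3 genes were called without chow mesentery B and 2 without chow adipose B. Without high-fat mesentery B 3 were called, and without high-fat adipose B 16. Leaving out a library of run A gave 55 to 129. Each number counts all genes called in that refit, whether or not they were among the 47. Without the block, 12 or 13 of 27 tested genes from the lists lost their call when a library of run A was left out. Within 1 tissue the blocked test called 11 genes for diet in mesentery (0.831%), 7 higher (0.529%) and 4 lower (0.302%), and 13 in adipose tissue (0.982%), 7 higher (0.529%) and 6 lower (0.453%). Retnla, Mmp12, Spp1, Cd9 and Lyz1 were called in both. Adjusted p-values below are from edgeR, with the block unless stated.

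Lipid-associated genes were higher on high-fat diet in both tissues. Of 18 genes, 17 were compared in each tissue; 15 were at least 2-fold higher on high-fat diet in mesentery and 14 in adipose tissue, none was 2-fold lower, and the median log2 difference was 2.72 in both. Of all genes compared, 10.3% were 2-fold higher in mesentery and 11.3% in adipose tissue. In the edgeR test over 8 libraries, 7 of 17 passed without the block and 10 of 17 with it, all higher. Of all 1324 genes tested, 9 were called higher without the block and 18 (1.36%) with it.

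Receptors and surface proteins come first. Trem2, which binds lipids and apolipoproteins and signals for phagocytosis, stood at 77.7, 122, 778 and 1102 CPM. Both high-fat levels lay above both chow levels, 10.0 times (95% Poisson interval 5.42 to 20.9) in mesentery and 9.04 times (5.28 to 17) in adipose tissue, and a UMI was found in 25%, 60%, 85.6% and 91.7% of macrophages. These and all later intervals on levels cover counting error only. Trem2 passed with the block (edgeR adjusted p 0.0391) but not without it (0.428), and its adjusted p over 12 alternatives ran from 0.0124 to 0.996. Gpnmb, a lysosome-linked membrane glycoprotein, stood at 0, 28.2, 529 and 559.8 CPM, and its 3 UMIs on chow all came from 1 macrophage. It was at least 22.7-fold higher in mesentery and 19.9 times as high in adipose tissue (6.80 to 96.5), with edgeR adjusted p 2.53e-06 (0.00124 without the block; 2.53e-06 to 0.996 over 12 alternatives). Cd9, a tetraspanin, stood at 7.77, 18.8, 465 and 597 CPM, from 1 and 2 UMIs on chow. The high-fat levels were 59.8 times (10.7 to 2366) and 31.8 times (8.80 to 263) those on chow (edgeR adjusted p 2.01e-06; 8.86e-08 to 0.266 over 12 alternatives). Cd36, the fatty acid translocase and scavenger receptor, differed little, at 1578, 1867, 1848 and 2012 CPM.

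Secreted products followed the same pattern in fewer cells. Mmp12, the macrophage elastase, had no UMI in the chow macrophages and stood at 682 and 1127 CPM on high-fat diet, at least 29.2-fold and at least 40.0-fold higher. Its UMIs came from 24.4% and 23.6% of the high-fat macrophages, so most macrophages showed none. It passed the edgeR test with the block (adjusted p 1.05e-08) and without it (1.83e-05), and in 9 of 12 alternatives, whose adjusted p ran from 4.22e-09 to 0.996. Spp1, encoding the matrix protein osteopontin, had no UMI on chow and stood at 301 and 270.1 CPM on high-fat diet, at least 12.9-fold and at least 9.6-fold higher (edgeR adjusted p 2.01e-06; 2.01e-06 to 0.996 over 12 alternatives). In high-fat mesentery 82.8% of the Spp1 UMIs came from 1 macrophage, and in high-fat adipose tissue 27.3%.

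Lipid handling genes were already expressed on chow, with the fatty acid binding protein gene Fabp5 as the one near the floor. Lpl, lipoprotein lipase, stood at 1081, 938, 3004 and 3323 CPM, 2.78 times (2.35 to 3.32) and 3.54 times (2.91 to 4.35) as high on high-fat diet. When barcodes holding Cdh5 or Cldn5 were let in, its log2 difference in mesentery was -0.17. Its edgeR adjusted p was 0.00496 with the block and 0.347 without it. Plin2, which coats lipid droplets, stood at 139.9, 131, 1263 and 1357 CPM, 9.03 times (5.70 to 15.3) and 10.3 times (6.15 to 18.9) as high (edgeR adjusted p 0.00463 with the block, 0.279 without). Neither Lpl nor Plin2 passed when any 1 library was left out of the fit without the block, and without high-fat mesentery B both changed sign there (log2 -5.34 and -4.29). Fabp5 stood at 31.1, 65.7, 1118 and 935 CPM, 35.9 times (14.0 to 132) and 14.2 times (6.91 to 35.4) as high (edgeR adjusted p 5.07e-05; 2.59e-05 to 0.684 over 12 alternatives). One macrophage gave 38.0% of the Fabp5 UMIs of high-fat mesentery. Fabp4 (233, 300.3, 659 and 724 CPM) and Lipa, lysosomal acid lipase (264, 338, 665 and 817 CPM), were between 2.41 and 2.82 times as high on high-fat diet and did not pass the edgeR test (adjusted p of Fabp4 0.0886). With barcodes holding Cdh5 or Cldn5, the log2 difference of Fabp4 in adipose tissue was -2.04. Fabp5, Fabp4, Cd9, Lpl and Cd36 are also endothelial transcripts: after thinning to 2000 UMIs they had a UMI in 26.9% to 97.8% of endothelial barcodes. The part of carried-over endothelial RNA in them was not tested. In the macrophages the endothelial list summed to 93.3 and 75.1 CPM on chow, from 12 and 8 UMIs, and to 21.4 and 33.0 CPM on high-fat diet.

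Lgals3, galectin-3, a lectin of phagocytic macrophages, had the same ratio in both tissues. It stood at 606, 619, 4002 and 4088 CPM, 6.60 times as high on high-fat diet in mesentery (5.28 to 8.36) and in adipose tissue (5.19 to 8.54). The edgeR adjusted p was 5.74e-06 with the block and 0.0105 without it, and ran from 4.70e-06 to 0.996 over 16 alternatives, of which 5 passed. When a library was left out of the fit without the block, Lgals3 passed in 0 of 8 fits. Cd9, Gpnmb and Fabp5 each passed in 0 of the 4 such fits that tested them, and Mmp12 and Spp1 in 3 of 4. In run A, Lgals3 had 0 UMIs in the 5 chow macrophages and 41 in the 4 high-fat macrophages, and Lpl had 0 and 25. The whole lipid-associated list differed less in run A. It held 107 UMIs on chow and 151 on high-fat diet, or 10255 and 14542 CPM.

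**Figure D3:**
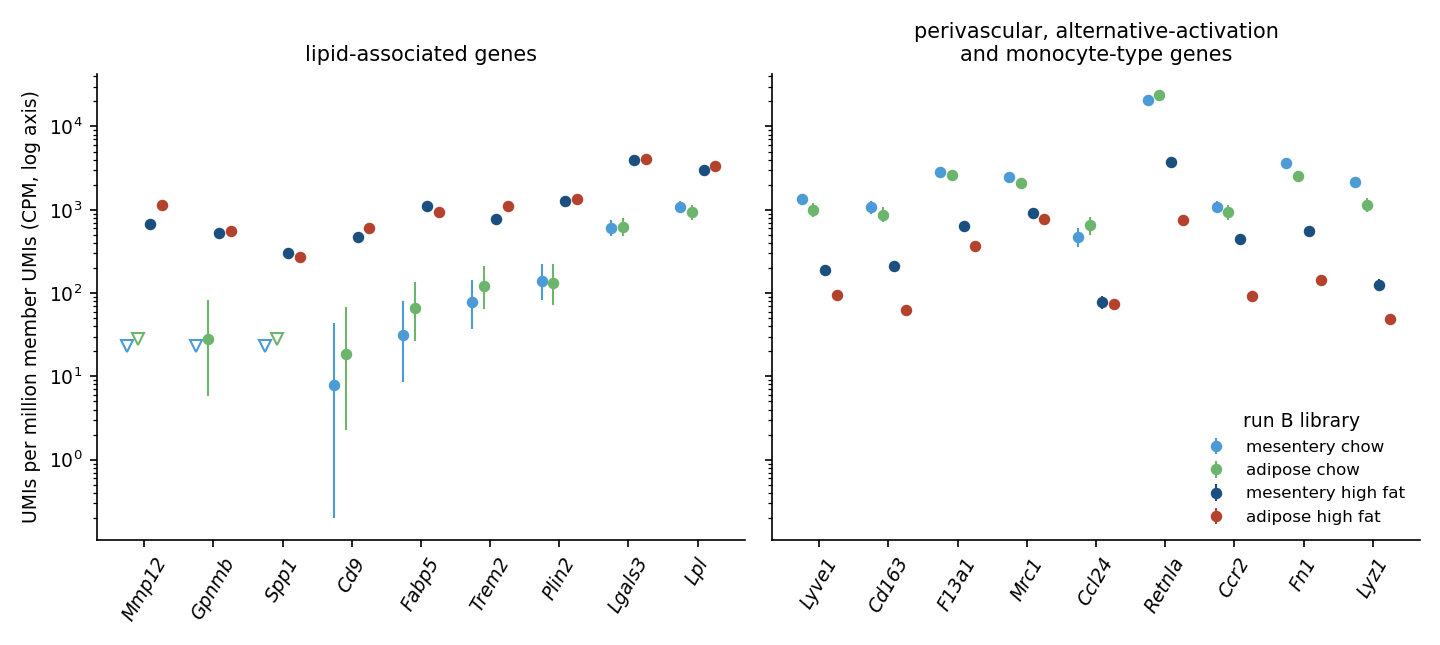
Level in CPM, on a log axis, of 9 lipid-associated genes and 9 other genes in macrophages of the 4 run B libraries; bars are 95% Poisson intervals of counting error, and open triangles mark the level of 3 UMIs where none was found. Mmp12, at 682 and 1127 CPM on high-fat diet, has triangles on chow, while Lyve1 runs from 1329.5 and 995 CPM on chow down to 188 and 93.6 CPM.

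Of 12 lysosomal genes compared in adipose tissue, 4 were 2-fold higher (median log2 difference 0.55), where 11.3% of all genes compared were. In mesentery 3 of 11 were 2-fold higher (median 0.20), where 10.3% of all genes were, and none passed the edgeR test over 8 libraries. The list summed to 16485 CPM in the chow macrophages of run A and 12519 CPM in the high-fat ones, the opposite direction. The vacuolar proton pump subunit gene Atp6v0d2, of the lipid-associated list, stood at 7.77, 28.2, 263 and 259 CPM (edgeR adjusted p 0.000971 with the block, 0.0224 without, and no call without any 1 library of the 4 that could be left out). Of the cathepsins, which degrade proteins in lysosomes, Ctsl stood at 358, 263, 1689 and 1736 CPM (adjusted p 0.320, edgeR) and Ctsd at 746, 732, 2108 and 2241 CPM, while Ctsb was under 2-fold different at 2853, 3350, 4987 and 5246 CPM. The ferritin genes, which store iron, were among the most abundant: Fth1 stood at 4043, 4345, 11922 and 14602 CPM and Ftl1 at 3001, 5189, 11963 and 13609 CPM. Fth1 was 2.95 times (2.70 to 3.22) and 3.36 times (3.07 to 3.69) as high in run B, yet had an edgeR adjusted p of 0.722 with both runs in the fit, against 0.529 for Ftl1.

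Perivascular resident genes were lower on high-fat diet. Of 18 genes, 16 were compared in each tissue, and 12 of them were at least 2-fold lower in mesentery and 12 in adipose tissue, with median log2 differences of -1.50 and -2.05; none was 2-fold higher. Of all genes compared, 15% were 2-fold lower in mesentery and 11.6% in adipose tissue. In the edgeR test over 8 libraries 4 of 17 passed without the block and 9 of 17 with it, all lower. Of all 1324 genes tested, 9 were called lower without the block and 29 (2.19%) with it.

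Lyve1, the hyaluronan receptor, stood at 1329.5, 995, 188 and 93.6 CPM. It was 7.07 times (5.81 to 8.59) and 10.6 times (8.56 to 13.1) lower on high-fat diet, with edgeR adjusted p 0.000892 with the block and 0.0625 without it. Cd163, the haemoglobin scavenger receptor, stood at 1065, 873, 209 and 62.1 CPM, 5.09 times (4.13 to 6.24) and 14.0 times (11.1 to 17.6) lower. Its edgeR adjusted p was 6.31e-05 (0.0204 without the block), with 1.40e-05 to 0.929 over 16 alternatives. High-fat adipose tissue had the lowest level of both receptors. F13a1, the coagulation factor XIII A subunit, stood at 2877, 2618, 643 and 366 CPM, 4.47 and 7.16 times lower (edgeR adjusted p 4.26e-05, 0.0217 without the block). Mrc1, the mannose receptor, stood at 2449, 2111, 906 and 779.7 CPM, 2.70 and 2.71 times lower (edgeR adjusted p 0.0150, 0.402 without the block). Ccl24, an eosinophil-attracting chemokine, stood at 466, 647, 77.4 and 74.7 CPM, 6.03 and 8.67 times lower (edgeR adjusted p 0.00344, 0.171 without the block). The lectin genes Cd209d (272, 319, 76.0 and 34.5 CPM) and Cd209f (498, 357, 135 and 105 CPM), which belong to a cluster of similar genes, were lower as well. None of Lyve1, Cd163, F13a1, Ccl24, Cd209d and Cd209f passed when a library was left out, whichever it was, in the fit without the block, and without chow adipose B the differences of Lyve1 (log2 3.16) and Ccl24 (3.01) changed sign there.

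Not every gene of the list followed. Pf4, a platelet-factor chemokine of resident macrophages, stood at 2154, 2139.5, 1443 and 1370.2 CPM (log2 differences -0.58 and -0.64), and Selenop, a selenium carrier, at 4525, 5302, 3369 and 3805 CPM (-0.43 and -0.48). The growth factor gene Igf1 was level at 389, 385, 470.0 and 436 CPM. Folr2, a folate receptor that marks resident macrophages, stood at 629.8, 976, 492 and 454 CPM. Gas6, a bridging ligand for uptake of dying cells, stood at 568, 582, 197 and 221 CPM (edgeR adjusted p 0.0513). The transcription factor gene Maf, outside the list, stood at 1819, 1483, 637 and 582 CPM (edgeR adjusted p 0.0123, 0.376 without the block).

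Retnla, which encodes the secreted protein RELMα of alternatively activated macrophages, was the most abundant of all these transcripts on chow. It stood at 20930.2 CPM in chow mesentery, 24032 in chow adipose, 3767 in high-fat mesentery and 763 in high-fat adipose tissue. It was 5.56 times (5.30 to 5.82) lower on high-fat diet in mesentery and 31.5 times (30.0 to 33.0) lower in adipose tissue, and 66.7%, 80%, 47.8% and 11.5% of macrophages had a UMI. In run A it had 133 UMIs in the 5 chow macrophages and 1 in the 4 high-fat macrophages. The edgeR adjusted p was 7.48e-11 with the block and 4.66e-07 without it, and 12 of 16 alternatives passed, with adjusted p from 5.86e-12 to 0.239. Of the other genes of alternative activation, the lectin gene Clec10a stood at 614, 554, 207 and 246 CPM (edgeR adjusted p 0.0166, 0.167 without the block). Mgl2, a related lectin, stood at 1081, 609.9, 309.6 and 69.5 CPM and Ear2, a ribonuclease, at 513, 385, 223 and 36.5 CPM. Neither passed the edgeR test (adjusted p 0.528 and 0.811).

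Of a list of 10 monocyte and dendritic cell genes only Ccr2 and Lyz1 were compared; both were at least 2-fold lower in run B in both tissues. In run A the list held 3 UMIs on each diet. Ccr2, the receptor that brings monocytes from blood into tissue, stood at 1081, 929, 451 and 93.0 CPM, 2.39 and 9.98 times lower, and did not pass the edgeR test (adjusted p 0.0750). Lyz1 is a close copy of Lyz2, so its counts are uncertain; it stood at 2154, 1145, 126 and 49.0 CPM. Fn1, fibronectin, the only compared gene of the list of large peritoneal macrophages, stood at 3615, 2552, 562 and 144 CPM. Lyz1 and Fn1 passed the edgeR test (adjusted p 2.53e-06 and 0.00189), but on chow a single macrophage gave 71.1% and 91.0% of the Lyz1 UMIs and 44.7% and 77.9% of the Fn1 UMIs in mesentery and adipose tissue. In the fit without the block, the difference of Lyz1 changed sign without chow adipose B, and that of Fn1 without chow mesentery B or chow adipose B.

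Of 6 MHC class II genes compared, which present antigen, 1 was 2-fold lower in mesentery (median log2 difference -0.55), where 15% of all genes were. In adipose tissue 3 were 2-fold lower (median -0.98), where 11.6% of all genes were, and none passed the edgeR test over 8 libraries. In run A the list was higher on high-fat diet, at 66737 CPM against 29231 CPM on chow, and with the block the edgeR medians were 0.94 in mesentery and 0.07 averaged over the tissues. H2-Aa, an alpha chain, stood at 6026, 5733, 4137 and 2618 CPM, and Cd74, the invariant chain, at 14796, 13156, 10072 and 7109 CPM. Of 12 cholesterol efflux and LXR target genes, 4 were compared in mesentery, of which Abca1 was 2-fold lower, and 3 in adipose tissue, of which none differed 2-fold; none passed the edgeR test. Apoe stood at 4937, 9421, 9179 and 12711 CPM and the sterol transporter gene Abca1 at 311, 178, 142 and 127 CPM. Pro-inflammatory cytokine genes were low in run B; the inflammatory list summed to 342, 141, 878 and 1084 CPM there and to 16620 CPM in run A, mostly Ccl8 and Cxcl2. Early response genes of tissue dissociation summed to 645, 507, 1603 and 1369 CPM in run B and to 5572 CPM in run A; they were higher on high-fat diet and in run A, and their part in the differences was not tested. One of them, Atf3, a stress-induced transcription factor, stood at 38.9, 46.9, 429.9 and 373 CPM (edgeR adjusted p 0.0882).

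Among genes on no list, those with large differences included Rgs1, a brake on G-protein signalling from chemokine receptors, at 7.77, 0, 184 and 259.8 CPM, and Basp1, a membrane-bound signalling protein, at 62.2, 18.8, 304 and 373 CPM. The creatine kinase gene Ckb stood at 132, 46.9, 355 and 508 CPM and the aldo-keto reductase gene Akr1b8 at 7.77, 0, 113 and 268 CPM. All 4 were higher in both high-fat libraries than in both chow libraries. The endothelin receptor gene Ednrb stood at 855, 591, 91.9 and 121 CPM and was lower on high-fat diet (edgeR adjusted p 0.00147).

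Because high-fat macrophages were deeper, detection was also compared at 1 depth. Each macrophage of run B was thinned to 2000 UMIs, which left 19, 13, 90 and 437 and dropped 5, 2, 0 and 7 shallower ones. Trem2 then had a UMI in 15.8%, 23.1%, 48.9% and 70.0% of macrophages and Lgals3 in 42.1%, 38.5%, 82.2% and 90.8%. Gpnmb had none in 19 and 13 chow macrophages (exact 95% upper limits 17.6% and 24.7%) and a UMI in 13.3% and 19.0% on high-fat diet. In the other direction Lyve1 was found in 47.4%, 53.8%, 16.7% and 7.78% and Retnla in 73.7%, 69.2%, 38.9% and 7.55%. For these genes the differences between diets thus had the same direction at equal depth. In endothelial barcodes thinned alike, Trem2 reached at most 2.25%, Gpnmb 1.66% and Retnla 1.32%, whereas Lyve1, which endothelial cells of lymphatics also express, ran from 2.21% to 15.8%. Mki67 or Top2a, both made in dividing cells, had a UMI in 5.26% (1 of 19), 7.69% (1 of 13), 4.44% and 4.81% of thinned macrophages, against 4.17%, 6.67%, 21.1% and 13.1% before thinning. Stmn1, a microtubule regulator raised in dividing cells, was found in 0%, 7.69%, 16.7% and 16.0% after thinning, and passed the edgeR test with the block (adjusted p 0.0424) but not without it (0.347). The list of 12 cycling genes summed to 62.2, 244, 583 and 529.9 CPM, and none of them reached the 200 CPM of the 2-fold comparison. In the additive fit of run B described below, 5 of 10 cycling genes tested were called higher on high-fat diet, where 5.53% of all genes were. With 1 thinned chow macrophage positive per tissue, the thinned shares of Mki67 or Top2a have wide intervals.

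**Figure D4:**
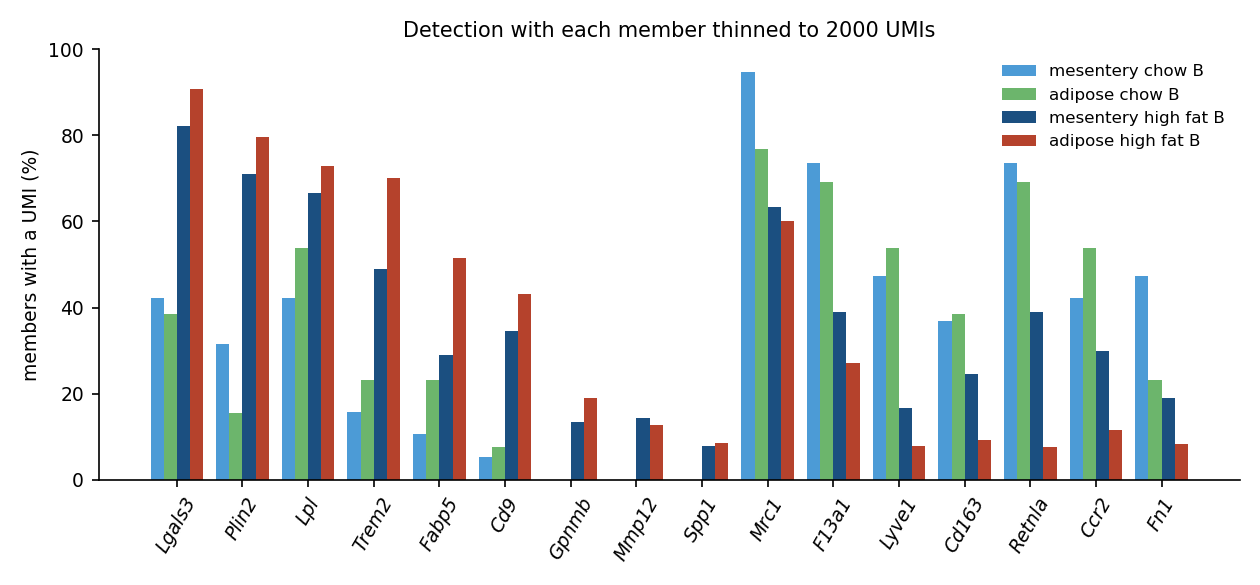
Percent of macrophages with at least 1 UMI of each of 16 genes after thinning every macrophage to 2000 UMIs, for the 4 run B libraries. Trem2 goes from 15.8% in chow mesentery to 70.0% in high-fat adipose tissue, and Retnla from 73.7% to 7.55%.

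Macrophages of the 2 tissues differed in few genes. On chow 45 of 855 genes differed 2-fold (5.26%), 18 higher (2.11%) and 27 lower (3.16%) in adipose tissue; none of 9 lipid-associated genes compared did, and of 17 perivascular genes only Cd209g did, with 77.7 CPM against 282 CPM in adipose tissue. On high-fat diet 13 of 769 genes differed 2-fold (1.69%), 2 higher (0.26%) and 11 lower (1.43%) in adipose tissue. Retnla was 4.94 times lower there (4.75 to 5.13), Ccr2 4.85 times (4.34 to 5.42), Mgl2 4.45, Ear2 6.11, Fn1 3.9 and Cd163 3.37 times. Akr1b8 was 2.37 times as high (2.02 to 2.79). None of 17 lipid-associated genes differed 2-fold between the tissues on high-fat diet (median log2 difference 0.12, against 0.04 over all genes compared). edgeR over 8 libraries called 0 genes between tissues on high-fat diet (0%), where 3 genes had an unadjusted p under 0.05 (6 with the block); DESeq2 also called 0, and 1 gene had such a p. On chow edgeR called 1 gene (0.0755%), the chemokine gene Ccl8, and with the block Ccl21a as well (0.151%). Averaged over the diets, 13 genes differed 2-fold between the tissues (1.31%), 1 higher (0.101%) and 12 lower (1.21%) in adipose tissue. The edgeR interaction of tissue and diet called 0 genes (0%), with 6 at an unadjusted p under 0.05, and 2 with the block (0.151%), again Ccl8 and Ccl21a.

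A fit of tissue and diet as additive terms on the 4 run B libraries alone, chosen after seeing the data and with 1 residual degree of freedom, tested 7178 genes. It called 791 for diet (11%), 397 higher (5.53%) and 394 lower (5.49%), among them 16 of 18 lipid-associated genes higher and 14 of 18 perivascular genes lower. For tissue it called 34 genes (0.474%), 6 higher (0.0836%) and 28 lower (0.39%) in adipose tissue, among them Ear2 (edgeR adjusted p 3.97e-07), Mgl2 (7.88e-07), Ccr2 (0.000139) and Cd163 (0.00345). Retnla was not called between tissues (edgeR adjusted p 0.407). With at least 5 of the 7 markers required, this fit called 398 genes for diet and 4 for tissue.

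Within a library the macrophages were not alike. Chow macrophages were not thinned here, and their depth ran from 1026 to 16442 UMIs in mesentery and from 1040 to 16423 in adipose tissue. In chow mesentery Lyve1 and Ccr2 were mostly in different macrophages. Of 24, 11 had UMIs of Lyve1 alone, 10 of Ccr2 alone, 1 of both and 2 of neither. Of 15 in chow adipose tissue the numbers were 6, 5, 3 and 1, a less clear separation. Of the UMIs of Cd163, 84.7% and 81.7% were in macrophages with Lyve1, as were 85.4% and 90.7% of those of F13a1. Fn1 lay on the other side, with 464 of 465 and 272 of 272 UMIs in macrophages with Ccr2, as did Lyz1 with 277 of 277 and 122 of 122. Few macrophages gave these UMIs, 8 and 3 for Fn1 and 4 and 3 for Lyz1. Retnla was on both sides: 27.2% of its UMIs in mesentery and 65.2% in adipose tissue were in macrophages with Lyve1, and 72.7% and 35.2% in those with Ccr2.

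On high-fat diet, after thinning to 2000 UMIs, 12 of 90 macrophages of mesentery and 83 of 437 of adipose tissue had a UMI of Gpnmb. In mesentery, Fabp5 was found in 91.7% of these and in 19.2% of the other 78, and Mmp12 in 58.3% and 7.69%. In adipose tissue, Fabp5 was found in 79.5% against 44.9%, Mmp12 in 37.3% against 7.06% and Trem2 in 85.5% against 66.4%. The lipid-associated genes named so far were thus found more often together with Gpnmb. Exact 95% intervals overlapped in adipose tissue for Plin2 (85.5% against 78.2%) and Spp1 (15.7% against 6.78%). In mesentery they overlapped for Trem2 (83.3% against 43.6%), Plin2 (91.7% against 67.9%) and Spp1 (33.3% against 3.85%). Macrophages with Lyve1 were the counterpart for part of these genes. The 34 of them in high-fat adipose tissue had F13a1 in 88.2%, against 21.8% of the rest, Retnla in 52.9% against 3.72%, Folr2 in 91.2% against 38.2%, Lpl in 38.2% against 75.7% and the MHC class II gene H2-Aa in 29.4% against 76.4%. Their Mmp12 and Ccr2 were at 0 of 34 (exact 95% upper limit 10.3%). Fabp5 was found in 20.6% of the 34 against 54.1% of the rest, and Atp6v0d2 in 2.94% against 27.3%. Exact 95% intervals overlapped for Trem2 (61.8% against 70.7%), Plin2 (67.6% against 80.6%), Gpnmb (5.88% against 20.1%) and Spp1 (5.88% against 8.68%). In high-fat mesentery the 15 with Lyve1 had F13a1 in 93.3% against 28.0% and Lpl in 13.3% against 77.3%. Cells of 1 library are not replicates, so these shares describe the libraries.

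Summed per macrophage, the lipid-associated list took a median of 0.905% of UMIs in chow mesentery, 0.805% in chow adipose, 1.37% in high-fat mesentery and 1.80% in high-fat adipose tissue, with a highest value of 9.26% in the last and 1.66% in chow mesentery. The perivascular list took 2.11%, 1.36%, 0.713% and 0.768%. Ranges of the diets overlapped for both lists. Among the 444 macrophages of high-fat adipose tissue, which share 1 library and differ in depth, Spearman's rho of the lipid-associated share was -0.41 with the perivascular share, 0.68 with the lysosomal list, which shares 3 genes with it, and 0.43 with UMIs per macrophage. Among the 90 of high-fat mesentery these values were -0.20, 0.79 and 0.36.

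**Figure D5:**
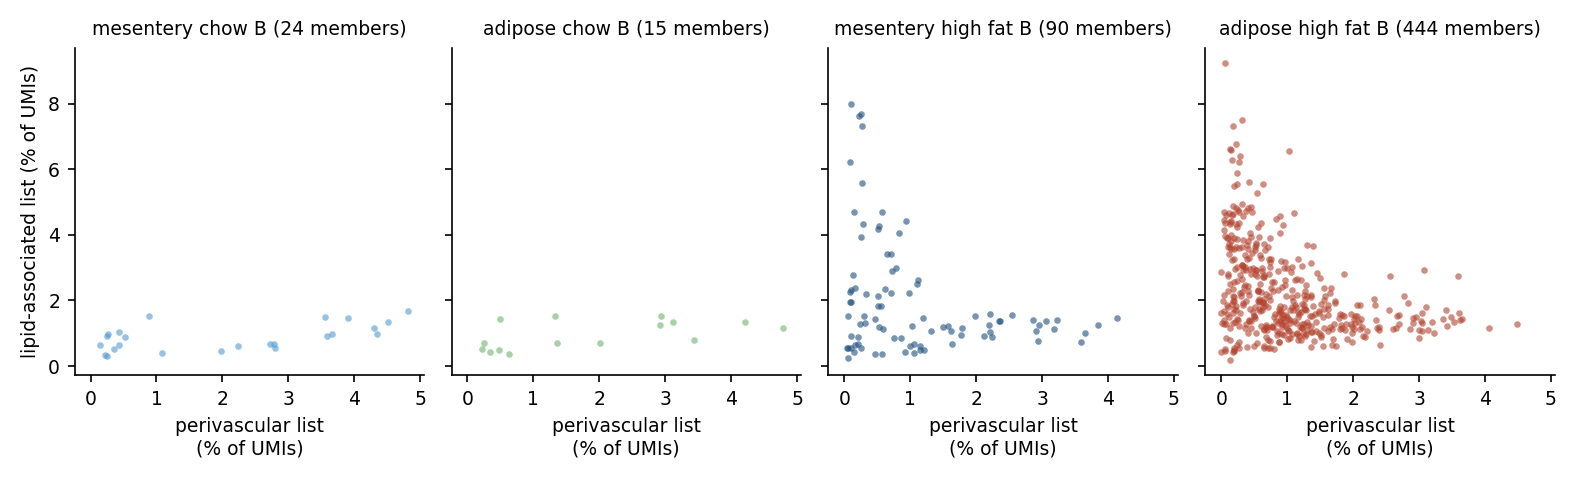
Each point is 1 macrophage of run B: percent of its UMIs in the perivascular list (horizontal) and in the lipid-associated list (vertical), in 1 panel per library. Chow macrophages of mesentery reach 1.66% on the vertical axis, while those of high-fat adipose tissue reach 9.26%.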

How the data were processed

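The values are UMI counts per gene and barcode, which the authors deposited as 1 filtered matrix per library; per the file headers they were made with Cell Ranger 3.0.2 in run A and 5.0.0 in run B, and the submitters' processing notes name mm10 and Seurat 4.3.0. How barcodes were filtered before deposit is not stated there. Of 27944 deposited barcodes, 23996 passed the limits on UMIs, genes and mitochondrial UMIs. The 2 feature lists share 30406 gene identifiers, which held 99.6% to 99.9% of UMIs, and only these were used; 25 symbols have more than 1 identifier.

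Counts were summed over the macrophages of each library. The planned edgeR fit used libraries with at least 10 macrophages, which left only the 4 libraries of run B, 1 per group, and no residual degree of freedom. The 2-fold counts of run B took its place as the main value of the 7 comparisons, and the tests came from all 8 libraries (edgeR 4.0.16, quasi-likelihood test with TMM factors, genes with low counts filtered by group, Benjamini-Hochberg adjustment over all genes tested) with and without run as a block. The labels say that the experiment was repeated as independent replicates, and the letters A and B in the titles were taken as these repeats, which they do not spell out; the letters went with the Cell Ranger version. Deviations of libraries of the same run from their group means correlated at 0.0588 to 0.183 over 6 pairs of groups. DESeq2 1.42.0, other marker numbers, filters and scalings, and leaving out each library were alternatives. On simulated counts for 10175 genes with 200 of them changed 4-fold by diet, the fit recovered 82.5% without and 95.0% with the block, the additive fit 76.5%, and the 2-fold count 93.5%, which also counted 74 unchanged genes. On the measured counts the fit over 8 libraries could test only 1324 genes, so the simulated rates need not hold for these data.

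Because the planned rule for naming genes needs adjusted p-values of the planned fit, genes were named from 31 lists and by size, the 10 largest 2-fold differences in each direction. The macrophages, the lists and the comparisons were chosen with earlier results of these data known. Levels have Poisson and shares binomial 95% intervals; UMIs are molecules, and these intervals cover counting error only. Genes in near-identical copies, such as Ccl21a, and overlapping genes are uncertain. Scrublet scores came from scanpy 1.11.5 with its default expected doublet rate. In each library the highest scores were called high, in a share fixed at 0.8% per 1000 deposited barcodes. Python 3.11.15, numpy 2.4.6, pandas 2.3.3, scipy 1.17.1, matplotlib 3.10.9 and R 4.3.3 were used.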

Additional observations from a re-analysis of the deposited data

Results flagged for a closer look

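Barcodes that met the macrophage side of the rule but also held Cdh5 or Cldn5 were not used in the comparisons. In run B they made up 6 of 5134 barcodes in chow mesentery (0.117%, exact 95% binomial interval 0.0429 to 0.254%) and 14 of 5659 in chow adipose tissue (0.247%, 0.135 to 0.415%). Their share was 0.969% (0.650 to 1.39%) in high-fat mesentery and 3.40% (2.89 to 3.98%) in high-fat adipose tissue, above the chow library of the same tissue in each case. Of the barcodes meeting the macrophage side, they were 20% in chow mesentery and 24.4% in high-fat mesentery. In adipose tissue they were 48.3% on chow and 25.3% on high-fat diet, so on this base the adipose share was lower on high-fat diet. Run A held 0, 0, 1 and 1 such barcodes. The part of doublets or free RNA in them was not tested.

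Ccl8, a chemokine of resident macrophages, had a different diet effect in the 2 tissues by the interaction term of the edgeR fit with run as a block (log2 -5.16, adjusted p 0.0292). It stood at 155, 37.5, 517 and 633 CPM in chow mesentery, chow adipose, high-fat mesentery and high-fat adipose tissue of run B. There it was 3.32 times as high on high-fat diet in mesentery (2.14 to 5.47) and 16.9 times in adipose tissue (6.58 to 61.9). Run A had 140 UMIs, all in chow adipose tissue, and the edgeR fit over both runs gave a log2 difference of -3.74 for diet in adipose tissue (adjusted p 0.0239), opposite to run B. All 20 UMIs of chow mesentery B came from 1 macrophage.

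Ccl21a, a chemokine of lymphatic endothelium with near-identical gene copies, also had an interaction in that fit (log2 13.24). Its UMIs in run B were 43, 0, 6 and 131, and run A had 0 on chow and 2 on high-fat diet; the size of the estimate rests on counts at or near 0.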

How the results depend on the processing

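Each 2-fold count rests on 1 library per group, and the tests over 8 libraries on 9 macrophages of run A. Fewer than 25 macrophages per chow library limit the precision of levels there. Where a value below changed, the cause was not tested. The diet difference in share (1.54) kept its sign: 1.53 over deposited barcodes, 1.5 with 5 markers, 1.40 at 20% mitochondrial UMIs, 1.72 thinned, and 0.718 to 2.29 leaving out a library; that of tissue (0.68) ran from -0.29, without high-fat adipose B, to 1.44. Without the 200 CPM limit the 2-fold counts were 1680 (diet in mesentery), 1335 (diet in adipose), 941 (tissue on chow), 761 (tissue on high fat), 856 (diet averaged), 112 (tissue averaged) and 1045 (interaction). With barcodes holding Cdh5 or Cldn5 they were 149 for diet in mesentery, 146 for tissue on chow and 85 for tissue averaged, and with 5 markers 85 for tissue on chow. Requiring 20 macrophages drops chow adipose B and leaves only diet in mesentery (231) and tissue on high fat (13). Neither uses that library, so both counts could not change. The 2-fold counts have no value without a library, each group having 1.

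edgeR calls over 8 libraries, in the order diet in mesentery, diet in adipose, tissue on chow, tissue on high fat, diet averaged, tissue averaged and interaction, were 1, 3, 1, 0, 18, 0 and 0. The replicate block gave 11, 13, 2, 0, 47, 1 and 2; size factors gave 4 for the first, 1 for tissue averaged and 2 for the interaction. DESeq2 gave 0, 0, 0, 0 and 2 for the first 5, and with the block 3 for diet in mesentery and 0 for tissue on chow. No filter gave 35, 19, 0, 127, 140, 3 and 1. With 5 markers there were 2, 1 and 0 calls for the first 3, and with the block too 11, 13 and, averaged, 52 for diet and 1 for tissue. Without high Scrublet scores there were 18, 9, 0, 10, 41 and 2 for the first 6. This setting also dropped chow mesentery A, whose 1 macrophage had a high score. Leaving out that library alone gave 16, 11, 0, 14 and 35 for the first 5. Leaving out a library gave 0 to 33, 0 to 19, 0 to 1, 0 to 19, 0 to 57, 0 to 0 and 0 to 0, and 2 to 129 for diet averaged with the block. The additive fit with 5 markers called 4 genes for tissue and 398 for diet, against 34 and 791.

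Of 595 alternative values of 119 2-fold gene differences, 527 stayed at least 2-fold in the same direction, 64 fell under 2-fold and 4 reversed. With Cdh5 or Cldn5 barcodes Lpl was -0.17 (diet in mesentery) and Fabp4 -2.04 (diet in adipose). Without high Scrublet scores Hbb-bs was -3.86 (diet in adipose) and -0.10 (tissue on high fat). Of 391 alternative values of 27 tested genes, 225 kept their side, 34 gained it, 125 lost it and 7 reversed. Leaving out a library moved Fn1 from -8.88 to 4.35 (positive without chow mesentery B, at 4.35, or chow adipose B, at 3.97), Ccl24 from -6.38 to 3.01, Lyve1 from -8.25 to 3.16 and Lyz1 from -8.91 to 2.36 (positive without chow adipose B), and Plin2 from -4.29 to 3.05 and Lpl from -5.34 to 8.18 (negative without high-fat mesentery B).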

Other observations

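Some transcripts were set by very few macrophages. Mucl1, a secreted mucin-like protein, had 537 UMIs in 2 macrophages of chow mesentery in run B, 60.5% of them in 1, and at most 1 UMI in each other library of that run. Hbb-bs, a beta-globin gene of red cells, had 1383 UMIs in high-fat adipose tissue, 99.1% of them from 1 macrophage. Chil3, a chitinase-like protein of monocytes and macrophages, had 76 UMIs from 1 macrophage of high-fat mesentery.

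Cxcl2, a neutrophil-attracting chemokine, had no UMI in chow macrophages of run B and stood at 57.4 CPM in high-fat mesentery and 45.3 CPM in high-fat adipose tissue. Run A held 9 UMIs in chow and 111 in high-fat macrophages, and the gene passed the edgeR test for diet averaged over tissues with the block (log2 7.25, adjusted p 2.01e-06). Early response genes were 5572 CPM in run A against 507 to 1603 CPM in run B, and their part was not tested.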
